A study of Saccharomyces cerevisiae with 61 samples.

Results

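RNA from wild-type budding yeast kept in camptothecin was compared with RNA from the same strain kept in methyl methanesulfonate (MMS), time by time after release from cell cycle arrest. The comparison rests on 14 of the 61 two-colour arrays of the series, chosen because they join camptothecin (CPT) and MMS extracts without any untreated extract later than the start. All extracts are total RNA of BY4741, a haploid MATa laboratory strain, whose cells had been arrested with mating pheromone and released. The groups are the untreated 0 min sample of replicate 1, cells in 50 µM CPT and cells in 0.033% MMS, the last 2 at 30, 45, 60 and 75 min with 2 replicates at each time. For some ratios untreated cells of replicate 2 at these times served as a further reference. Those ratios were solved from all 36 wild-type arrays of the series, which also hold cells in hydroxyurea. The labels do not say when CPT or MMS was added or that the replicates were separate cultures. The p-values therefore measure only the spread between these samples, which may be technical. In replicate 2, 1 array at each time set CPT RNA directly against MMS RNA. In replicate 1, 5 arrays led from the 0 min extract through the CPT extracts and back to it, and 5 did the same for MMS. The title of 1 of these MMS arrays gives its 0 min extract as MMS-treated, but its source name and agent entry have it as untreated, and it was used as the untreated extract.

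CPT holds topoisomerase I on DNA after it has cut a strand, and a replication fork that runs into this complex can break. MMS is an alkylating agent that methylates DNA bases, slows replication forks and also modifies proteins and glutathione. In budding yeast stalled or broken forks activate the checkpoint kinases Mec1 and Rad53, which among other effects raise transcription of ribonucleotide reductase genes and inactivate Nrm1, the corepressor of the G1/S transcription factor MBF. Cells released from pheromone pass from G1 through S phase into mitosis, so cell cycle genes change with time in every culture.

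Every value below is a log2 ratio of CPT over MMS, so that 1 means 2-fold higher in CPT, unless another ratio is named. The base of the deposited logarithm is not stated and was taken as 2. A value with ± is the mean of the 4 times with its SE from limma (2 replicates at each of 4 times), and a gene was called when its adjusted p was under 0.05. Array medians lay between -0.0175 and 0.0188, and the values summed round the 6 closed loops that hold these arrays varied with an SD of 0.295 to 0.468, against 0.746 to 1.1 for unrelated arrays. Across the 6249 features the differences of replicates 1 and 2 correlated with r = 0.719, 0.755, 0.767 and 0.813 in the order of the times, over features that are correlated with each other and with both replicates on the same probes. In replicate 1 the CPT and MMS chains were hybridised on different slides, apart from the last array of the MMS chain, whereas in replicate 2 both agents met on 1 array. Slide and agent cannot be told apart in replicate 1. Replicate 2 gives the comparison within a slide, but there CPT was always in Cy5 and MMS in Cy3. Its values carry a dye correction that comes from the closed chains of replicate 1, also where replicate 1 is left out of a fit. The 5th and 95th percentiles of this dye term over features were -0.157 and 0.157. Values of both replicates are given.

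CPT and MMS left widely different transcriptomes, and the differences were wider at 75 min than at 30 min. Of 6249 features, 2427 (38.8%) were called in the mean of the 4 times, 1230 (19.7%) higher and 1197 (19.2%) lower in CPT. Beyond 2-fold stood 270 (4.32%), 108 of them higher (1.73%) and 162 lower (2.59%). At single times the count grew from 189 (3.02%) at 30 min through 1210 (19.4%) and 1740 (27.8%) to 2704 (43.3%) at 75 min. Without the closing arrays of replicate 1 the counts were 797, 1784, 1647 and 1924, with no steady rise after 45 min. At 30 min 155 (2.48%) were lower in CPT and 34 (0.544%) higher, while the directions were near balance from 45 min on. The split at 30 min was 401 higher and 396 lower without the closing arrays, 167 and 288 with arrays scaled to equal spread and 87 and 217 with the replicate block. At 45 min it was 8 higher and 49 lower without replicate 2, and 3 and 26 with replicate 2 taken through the other 3 arrays of each loop. The SD of the differences over all features went from 0.343 to 0.737 in replicate 1 and from 0.308 to 0.696 in replicate 2 between 30 and 75 min. The median over all features stayed near 0 (0.02), and 2259 features (36.1%) had the same sign in all 8 differences. The count in the mean was 510 without replicate 2, 2007 without replicate 1 and 563 through those other loop arrays. At single times it was 24 and 49, 57 and 604, 390 and 714, and 1147 and 1439 without replicate 2 and without replicate 1, in the order of the times.

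**Figure D1:**
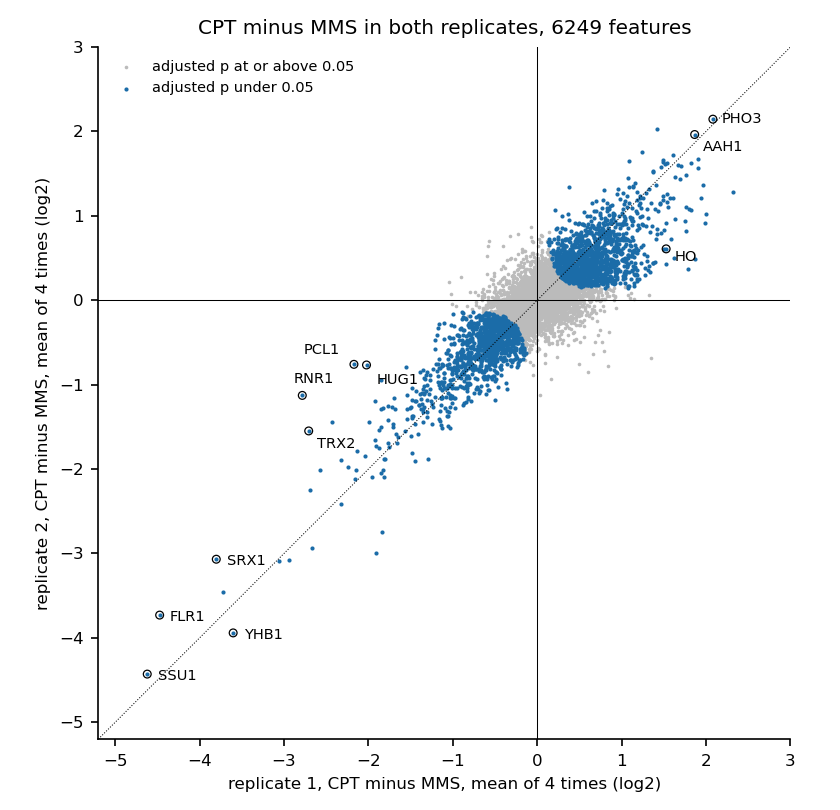
Mean CPT minus MMS over 4 times (log2) in replicate 1 (x axis) and replicate 2 (y axis) for 6249 features, blue where the limma adjusted p is under 0.05, with the diagonal dotted. SSU1 lies lowest in both replicates, whereas RNR1, HUG1 and PCL1 lie farther from 0 in replicate 1 than in replicate 2.

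The widest gap was in genes that protect cells from oxidants and toxic compounds, which were lower in CPT from the first time on. SSU1 (YPL092W), the sulfite efflux pump of the plasma membrane, gave -4.57, -4.61, -4.57 and -4.75 in replicate 1 and -4.15, -4.44, -4.73 and -4.40 in replicate 2. All 8 values lay close together, and the mean of -4.53 ± 0.11 makes SSU1 23.0-fold lower in CPT (adjusted p = 2e-08). FLR1 (YBR008C), a multidrug transporter under control of Yap1, gave -3.02, -4.34, -5.22 and -5.32 in replicate 1 and -2.61, -3.60, -3.92 and -4.80 in replicate 2, a gap that widened with time (mean -4.10 ± 0.18, adjusted p = 8.8e-07). YHB1 (YGR234W), the flavohaemoglobin that removes nitric oxide, gave -3.19, -3.56, -3.89 and -3.77 in replicate 1 and -3.87, -4.09, -4.10 and -3.71 in replicate 2, all below -3 (mean -3.77 ± 0.13, adjusted p = 1.5e-07). The sulfiredoxin gene SRX1 (YKL086W) averaged -3.44 ± 0.20 and the drug transporter gene ATR1 (YML116W) -3.07 ± 0.10. Next came the glutathione transferase gene GTT2 (YLL060C) at -3.01 ± 0.13, the methylglyoxal reductase gene GRE2 (YOL151W) at -2.30 ± 0.16 and the thioredoxin gene TRX2 (YGR209C) at -2.13 ± 0.25, which differed more in replicate 1 (mean -2.71) than in replicate 2 (-1.55). The gene of the oxidative stress regulator itself, YAP1 (YML007W), was 2.11-fold lower (-1.08 ± 0.12). Of 34 oxidative stress and detoxification genes 28 were lower and 0 higher, against 19.2% and 19.7% of all features, with a median of -1.37 (replicate 2 alone -1.16). At 30 min 21 of the 34 were already lower (2.48% of all features were). Against untreated cells of the same time, in the loops of replicate 2, SSU1 stood at 0.17 in CPT and 4.55 in MMS, FLR1 at 0.09 and 3.83, and the list median at 0.21 and 1.54. These ratios share their untreated samples, and in each case the MMS ratio was the farther from 0.

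**Figure D2:**
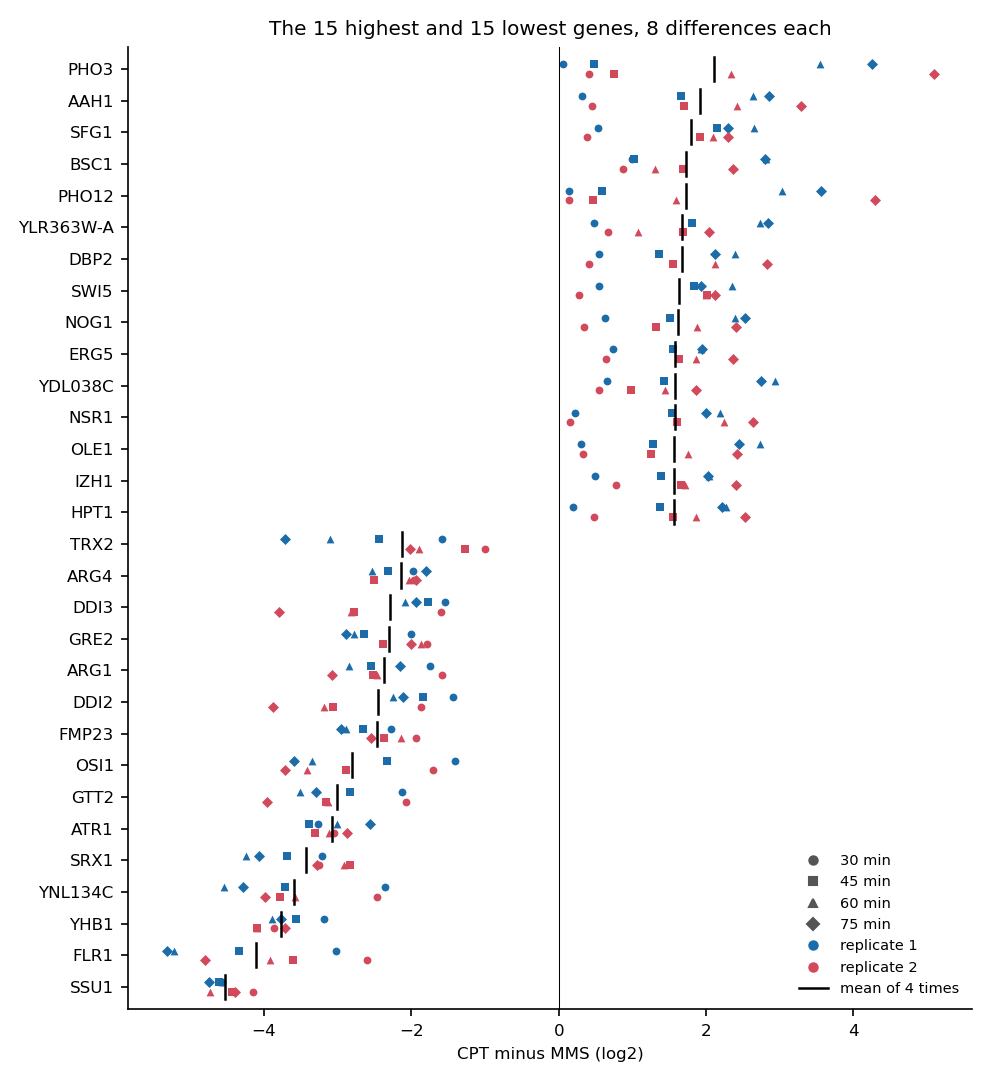
The 15 genes highest and the 15 lowest in CPT against MMS among those called with 1 sign in all 8 differences (x axis, log2), with colour for the replicate, marker shape for the time and a black bar for the mean. SSU1 has its 8 values close together, whereas PHO3 and PHO12 lie near 0 at 30 min and above 3.5 at 75 min.

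Genes of the proteasome, which degrades ubiquitin-tagged proteins, were lower in CPT as a block. The polyubiquitin gene UBI4 (YLL039C) gave -0.89, -1.56, -2.35 and -2.52 in replicate 1 and -1.20, -1.87, -2.11 and -2.85 in replicate 2. It was lower in all 8 differences and most so at 75 min, with a mean of -1.92 ± 0.11 (adjusted p = 4.4e-06). The subunit genes RPN8 (YOR261C) of the lid (-1.38 ± 0.11), PRE3 (YJL001W) of the catalytic core (-1.31 ± 0.12) and RPT2 (YDL007W) of the ATPase ring (-1.28 ± 0.11) had the next largest differences. RPN4 (YDL020C), the gene of the transcription factor that drives proteasome genes, gave -0.65, -0.56, -0.56 and -0.90 in replicate 1 and -0.85, -0.67, -0.65 and -0.77 in replicate 2, a smaller and steady difference (mean -0.70 ± 0.10, adjusted p = 0.00059). Of 35 genes on the list 33 were lower and 0 higher, against 19.2% and 19.7% of all features. The same 33 were below 0 in all 8 differences. Over the 4 times the list median was -0.64, -1.07, -1.04 and -1.20. In replicate 1 the median stood below the 0 min extract in CPT (-0.465 at 30 min and -0.44 at 75 min). In MMS it stood above that extract (0.13 and 0.85). Against untreated cells of the same time in replicate 2 the list median was 0.14 in CPT and 1.14 in MMS, so the sign in CPT depends on the reference. RPN4 (-0.67) without replicate 2 missed the threshold.

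Many amino acid and iron genes were also lower in CPT, some of them from 30 min. The argininosuccinate synthase gene ARG1 (YOL058W) gave -1.75, -2.54, -2.85 and -2.15 in replicate 1 and -1.59, -2.52, -2.46 and -3.07 in replicate 2, and the lyase gene of the next step, ARG4 (YHR018C), averaged -2.14 ± 0.11 with the 8 values between -2.53 and -1.81. ARG1 (mean -2.37 ± 0.14, adjusted p = 4e-06) and ARG4 were named by a rule that requires 1 sign in all 8 differences. That they were lower in every difference is therefore no separate result. The lysine pathway genes LYS1 (YIR034C) (-1.81 ± 0.11) and LYS20 (YDL182W) (-1.79 ± 0.12) were also lower in every difference. Of 18 arginine and lysine genes 9 were lower and 2 higher, against 19.2% and 19.7% of all features. The 2 were the transaminase gene CAR2 (YLR438W) (0.58 ± 0.11), which acts in arginine breakdown, and the homoaconitase gene LYS4 (YDR234W) (0.89 ± 0.10). Of 40 genes for other amino acids 22 were lower and 5 higher, against the same shares of all features. The lower ones were led by the aspartate kinase gene HOM3 (YER052C) (-1.34 ± 0.10) and the asparagine synthetase gene ASN1 (YPR145W) (-1.22 ± 0.12). Among the higher were GLN1, GDH1 and GLT1, which serve the assimilation of ammonia into glutamine and glutamate. Of 23 genes of the iron uptake list 12 were lower and 1 higher, again against 19.2% and 19.7% of all features. The cell wall siderophore-binding gene FIT2 (YOR382W) averaged -1.94 ± 0.21, the siderophore transporter gene ARN1 (YHL040C) -1.70 ± 0.12 and TIS11 (YLR136C), whose product degrades mRNAs of iron-using enzymes, -1.55 ± 0.12. FET4 (YMR319C), the low-affinity iron transporter gene, was the one higher, at 0.93 ± 0.15. At 30 min, when 2.48% of all features were lower in CPT, 8 of the 18 arginine and lysine genes, 10 of the 23 iron genes and 8 of the 40 for other amino acids were called lower, and 2 of the 40 higher (0.544% of all features were). The gap of the iron genes as a list narrowed with time. Their median was -0.67 at 30 min and 0.0061 at 75 min. Taken by replicate, the median at 75 min was -0.25 in replicate 1 and -0.17 in replicate 2. At that time 10 were lower and 5 higher (21.7% and 21.5% of all features), and 9 were higher late than early (7.92%). CAR2 (0.51), FET4 (0.77), GLN1 (0.65), GDH1 (0.42) and GLT1 (0.69) without replicate 2 missed the threshold. The 18 arginine and lysine genes gave 1 higher and 6 lower without replicate 2 and the 40 other amino acid synthesis genes gave 0 higher and 9 lower without replicate 2.

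**Figure D3:**
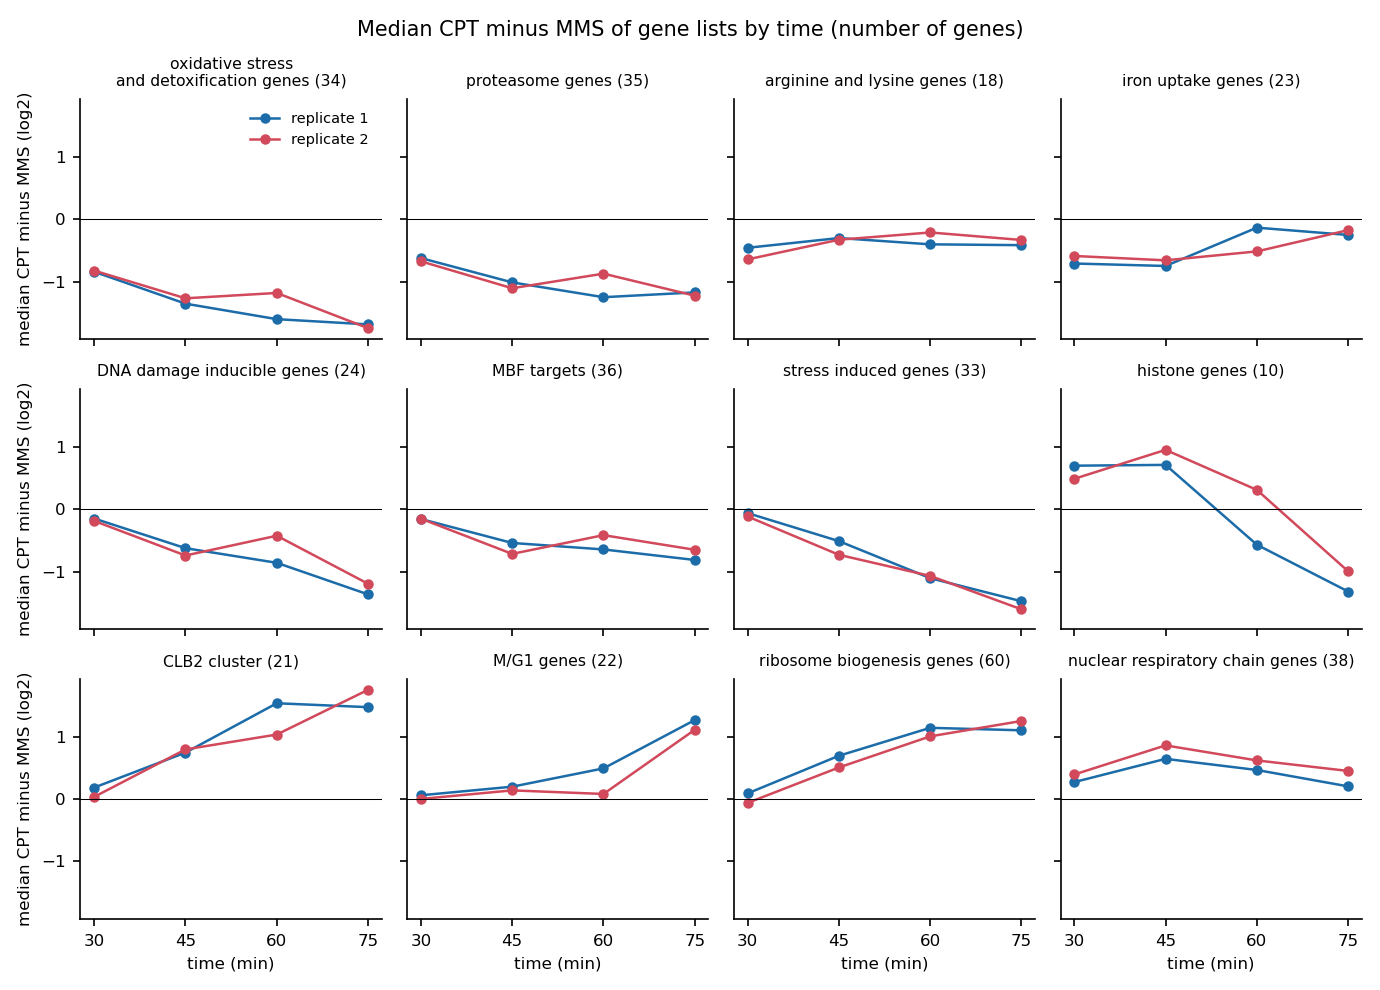
Median CPT minus MMS (y axis, log2) of 12 gene lists at 30, 45, 60 and 75 min, with 1 line for each replicate and the number of genes in brackets. The oxidative stress and proteasome medians lie below 0 at every time, the CLB2 cluster and ribosome biogenesis medians climb from near 0, and the histone median crosses 0 between 45 and 75 min.

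Genes of the DNA damage response were lower in CPT than in MMS, mostly from 45 min on. RNR3 (YIL066C), the damage-induced large subunit gene of ribonucleotide reductase, gave 0.27, -1.50, -2.30 and -2.08 in replicate 1 and 0.10, -1.55, -1.36 and -2.18 in replicate 2. The agents were thus close at 30 min and apart from 45 min on (mean -1.32 ± 0.13, adjusted p = 8.3e-05). The small subunit genes RNR2 (YJL026W) (-0.58 ± 0.13) and RNR4 (YGR180C) (-0.61 ± 0.12) followed the same course with smaller differences. RNR1 (YER070W), the main large subunit gene, gave -0.52, -2.46, -3.44 and -4.71 in replicate 1 and -0.85, -1.19, -0.67 and -1.80 in replicate 2. It was lower in every difference, yet its mean of -1.96 ± 0.42 (adjusted p = 0.0049) joins -2.78 in replicate 1 and -1.13 in replicate 2. HUG1 (YML058W-A), an inhibitor of the reductase, likewise gave -0.25, -2.25, -2.53 and -3.06 in replicate 1 and -0.02, -0.91, -0.68 and -1.46 in replicate 2 (mean -1.40 ± 0.28, adjusted p = 0.004), with -2.02 in replicate 1 and -0.77 in replicate 2. Of the 7 reductase and inhibitor genes 5 were lower (19.2% of all features were), and SML1 and DIF1 were not called. In the loops of replicate 2 the 7 had a median of 0.85 in CPT and 1.65 in MMS against untreated cells, above 0 in both.

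Outside the reductase, DUN1 (YDL101C), the kinase that acts below Rad53, averaged -0.81 ± 0.12 and RAD53 (YPL153C) itself -0.49 ± 0.11 (adjusted p = 0.0061). MAG1 (YER142C), the glycosylase that removes alkylated bases and starts their repair, gave -0.62, -1.08, -1.32 and -1.53 in replicate 1 and -0.89, -1.66, -1.51 and -1.85 in replicate 2. It was lower in CPT at each time (mean -1.31 ± 0.12, adjusted p = 5.6e-05), and so was its divergently transcribed neighbour DDI1 (YER143W) (-1.67 ± 0.14). DDI2 (YNL335W) and DDI3 (YFL061W), near-identical genes whose probes may share signal, stood at -2.45 ± 0.25 and -2.29 ± 0.23, with wider gaps in replicate 2 (-3.0 and -2.74) than in replicate 1 (-1.91 and -1.84). In replicate 2 MAG1 stood at 0.34 in CPT and 1.66 in MMS against untreated cells, and DDI2 at -0.02 and 2.99. Of 24 damage-inducible genes 5 were called lower at 30 min (2.48% of all features were), 13 at 45 min (9.99%), 14 at 60 min (14.1%) and at 75 min 19 (21.7%). In the mean 18 were lower and 1 higher (19.2% and 19.7% of all features). The higher one was the haspin kinase gene ALK1 (YGL021W) (1.25 ± 0.12), which also belongs to the CLB2 cluster. Of 13 base excision repair genes 6 were lower and 0 higher (46.2% called, against 38.8% of all features). Recombination and checkpoint genes were called at shares near or under the 38.8% of all features. Of 20 homologous recombination genes 4 were higher and 2 lower (30% called, median 0.01). Of 23 postreplication repair and checkpoint genes 4 were higher, among them the translesion polymerase gene REV1 (YOR346W) (0.89 ± 0.13) and the checkpoint kinase gene MEC1 (YBR136W) (0.58 ± 0.11), and 3 were lower, RAD53 among them (30.4% called). RNR2 (-0.59), RNR4 (-0.51), DUN1 (-0.91), RAD53 (-0.59), ALK1 (1.35) and MEC1 (0.72) without replicate 2 and RAD53 (-0.39) without replicate 1 missed the threshold. In size, RNR1 was -1.13 and HUG1 was -0.77 without replicate 1. RNR2 (-0.26) and RNR4 (-0.31) with 75 min left out missed the threshold. In size, RNR2 was -0.91 with 30 min left out. The 7 reductase genes gave 0 higher and 3 lower without replicate 2, the 24 damage-inducible genes gave 0 higher and 8 lower without replicate 2, the 13 base excision repair genes gave 0 higher and 1 lower without replicate 2 and 0 higher and 3 lower without replicate 1, the 20 homologous recombination genes gave 0 higher and 0 lower without replicate 2 and 1 higher and 1 lower without replicate 1 and the 23 postreplication repair and checkpoint genes gave 2 higher and 0 lower without replicate 2 and 2 higher and 1 lower without replicate 1.

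**Figure D4:**
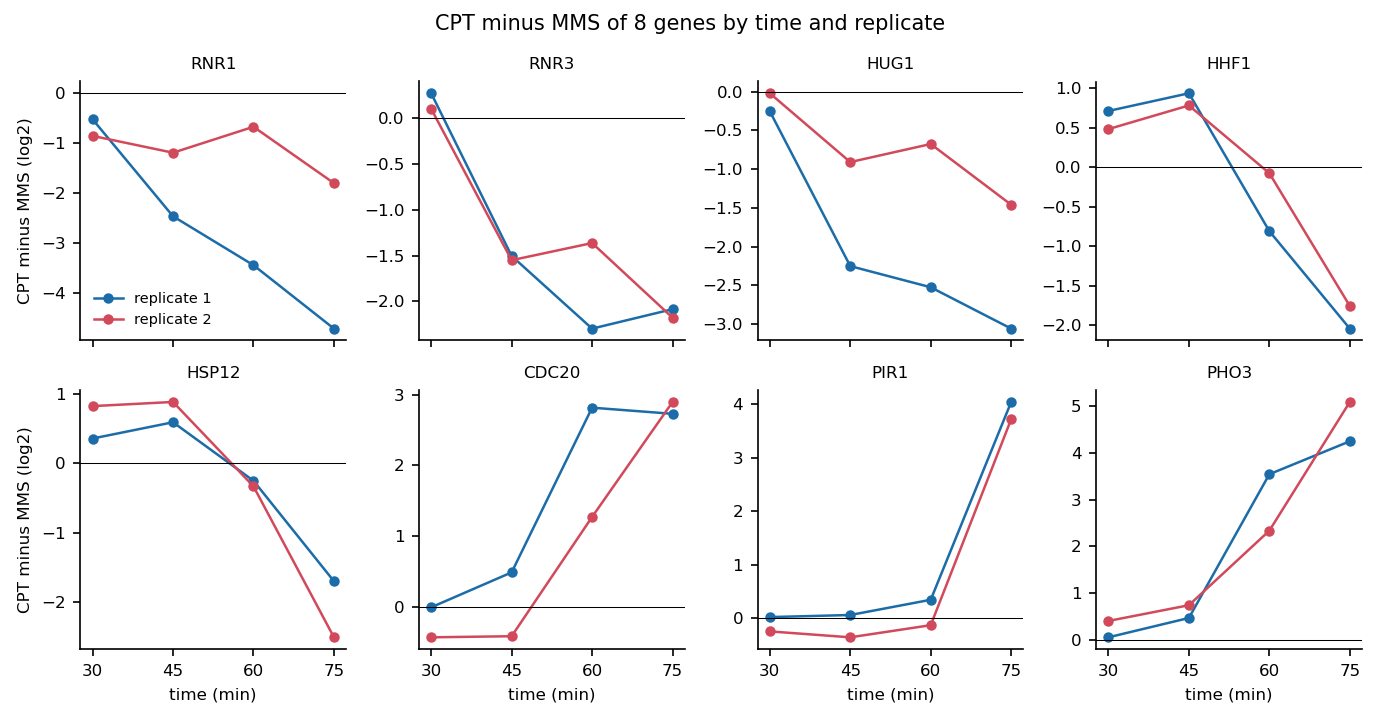
CPT minus MMS (y axis, log2, scale set for each gene) of 8 genes at 30, 45, 60 and 75 min, with 1 line for each replicate. RNR3, HHF1, HSP12, CDC20, PIR1 and PHO3 follow like courses in both replicates, whereas RNR1 and HUG1 lie lower in replicate 1 from 45 min on.

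MBF targets, many of which serve DNA synthesis and are switched on as cells leave G1, were lower in CPT after 30 min. These are the genes the study's title is about. POL30 (YBR088C), the gene of the sliding clamp PCNA, gave -0.95, -1.71, -2.38 and -2.62 in replicate 1 and -0.98, -1.89, -1.74 and -2.30 in replicate 2. It was below 0 throughout and more so later (mean -1.82 ± 0.12, adjusted p = 8.7e-06). The replication protein A gene RFA1 (YAR007C) (-1.30 ± 0.13), the cohesin gene MCD1 (YDL003W) (-1.30 ± 0.14), the S-phase cyclin gene CLB6 (YGR109C) (-1.25 ± 0.14) and the thymidylate synthase gene CDC21 (YOR074C) (-0.89 ± 0.12) were lower too. So were the forkhead-associated transcription factor genes PLM2 (YDR501W) (-0.68 ± 0.15) and TOS4 (YLR183C) (-0.68 ± 0.15), and SWI4 (YER111C), which encodes the DNA-binding part of SBF (-0.51 ± 0.10, adjusted p = 0.0032). Of 36 MBF targets 25 were lower and 0 higher in the mean, against 19.2% and 19.7% of all features. At the 4 times 1, 18, 18 and 25 were lower (2.48%, 9.99%, 14.1% and 21.7% of all features). The 1 at 30 min is near that share, and 1 target, CDC6, was higher at 75 min. The list median was -0.13, -0.64, -0.53 and -0.67 at the 4 times. NRM1 (YNR009W), the corepressor gene that MBF itself drives, gave 0.14, 0.52, -0.40 and -1.36 in replicate 1 and -0.12, 0.58, 0.58 and -0.92 in replicate 2. These values changed sign on the way and their mean was not called (-0.12 ± 0.14, adjusted p = 0.53), but late minus early they differed by -0.81 ± 0.18 (adjusted p = 0.013). That difference was -1.21 without replicate 2 and -0.40 without replicate 1, neither past the threshold (adjusted p = 0.068 and 0.5 from limma). The means of MBP1 (YDL056W) (0.25 ± 0.11) and SWI6 (YLR182W) (0.21 ± 0.10), the other parts of these factors, and of the S-phase cyclin gene CLB5 (YPR120C) (-0.12 ± 0.11) missed the threshold. In replicate 1 the MBF median stood at 1.93 above the 0 min extract in CPT and 1.97 in MMS at 30 min, and at 0.69 and 1.34 at 75 min. Against untreated cells of the same time in replicate 2 it was 1.35 in CPT and 1.50 in MMS at 30 min. At 75 min it was -0.68 and -0.05, so the sign at 75 min depends on the reference. POL30 (-1.91), RFA1 (-1.37), MCD1 (-1.34), CLB6 (-1.23), CDC21 (-0.79), PLM2 (-0.85), TOS4 (-0.83) and SWI4 (-0.48) without replicate 2 and TOS4 (-0.53) and SWI4 (-0.54) without replicate 1 missed the threshold. PLM2 (-0.42) with 75 min left out missed the threshold. The 36 MBF targets gave 0 higher and 2 lower without replicate 2 and 0 higher and 14 lower without replicate 1.

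Many targets of SBF, which drives G1 cyclins and cell wall genes, went down in CPT against MMS with time. Of 30 targets 16 were lower late than early and 1 higher, against 7.44% and 7.92% of all features. In the mean of the 4 times 9 were lower and 7 higher (53.3% called, against 38.8%), with a median of -0.03. At 30 min the median was 0.22 and at 75 min -0.47, when 17 were lower and 2 higher (21.7% and 21.5% of all features). The cyclin gene CLN1 (YMR199W) gave 0.15, 0.39, -1.0 and -1.26 in replicate 1 and 0.31, 0.36, -0.18 and -1.08 in replicate 2, above 0 early and below 0 late in both replicates, and its mean was not called (adjusted p = 0.096) although late minus early was (-1.18 ± 0.15, adjusted p = 0.0011). Without either replicate that difference missed the threshold as well (-1.40 without replicate 2 and -0.97 without replicate 1). CLN2 (YPL256C) at 0.11 ± 0.15 was not called (adjusted p = 0.62). PCL1 (YNL289W), a cyclin of the Pho85 kinase, averaged -1.47 ± 0.33 (adjusted p = 0.0071), with -2.17 in replicate 1 and -0.76 in replicate 2. HO (YDL227C), the mating-type switching endonuclease gene, stood the other way at 1.07 ± 0.23 (1.53 and 0.61), and NDD1 (YOR372C), an activator of the CLB2 cluster, at 0.49 ± 0.10. The other 5 higher targets had means of 0.29 to 0.48. HO (1.53) and NDD1 (0.48) without replicate 2 and HO (0.61) without replicate 1 missed the threshold. In size, PCL1 was -0.76 without replicate 1. PCL1 (-1.07) with 75 min left out missed the threshold. The 30 SBF targets gave 0 higher and 1 lower without replicate 2 and 3 higher and 6 lower without replicate 1.

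Histone genes, transcribed in S phase, were higher in CPT early and lower late. HHF1 (YBR009C), 1 of the H4 genes, gave 0.72, 0.94, -0.81 and -2.04 in replicate 1 and 0.49, 0.79, -0.07 and -1.75 in replicate 2. Both replicates crossed 0 between 45 and 75 min, so the mean was not called (-0.22 ± 0.13, adjusted p = 0.2) whereas late minus early was -1.90 ± 0.15 (adjusted p = 0.0001). The other H4 gene, HHF2 (YNL030W), followed it (late minus early -1.77), as did HHT2 (YNL031C) of H3 (-1.74) and HTB1 (YDR224C) of H2B (-1.36). HHF1 and HHF2 are near-identical, as are both H3 and both H2B genes, and their probes may share signal. Where replicate 2 was taken through the other 3 arrays of each loop, HHF1 late minus early was -1.26 and missed the threshold (limma adjusted p = 0.12). Of 10 histone genes 8 were called higher at 45 min (9.38% of all features were) and 9 lower at 75 min (21.7%). HTZ1 (YOL012C), the variant H2A.Z, stayed above 0 in all 8 differences and was higher in the mean (0.49 ± 0.12, adjusted p = 0.011). Only 15 features (0.24%) were called higher in CPT at 45 min and lower at 75 min, and 7 of them were histone genes. These samples are whole cultures, so fewer cells in S phase and less histone RNA in each cell cannot be told apart. Against the 0 min extract of replicate 1 the histone median in CPT was 3.24, 3.25, 1.66 and 0.79 over the 4 times. In MMS it was 2.35, 2.30, 2.14 and 2.11, nearly level. In the mean of the 4 times, not late minus early, HHT2 (-0.40), HTB1 (0.37) and HTZ1 (0.34) without replicate 2 missed the threshold. So did the means of HHT2 (-0.34) and HTB1 (0.28) without replicate 1. The mean of HTB1 with 30 min (0.19) or 45 min (0.01) left out missed the threshold. The mean of HHT2 missed it with 60 min (-0.29) or 75 min (0.12) left out. In size, the mean of HHT2 was -0.63 with 30 min left out and -0.69 with 45 min left out. That of HTB1 was 0.73 with 75 min left out.

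Genes of the CLB2 cluster, transcribed from G2 into mitosis, were higher in CPT from 45 min on. The mitotic cyclin gene CLB2 (YPR119W) gave 0.75, 1.87, 2.15 and 1.65 in replicate 1 and 0.35, 1.42, 1.46 and 1.63 in replicate 2. It was 2.66-fold higher in the mean (1.41 ± 0.13, adjusted p = 5.7e-05), and SWI5 (YDR146C), the transcription factor of late mitosis, 3.1-fold (1.63 ± 0.11). The chitin synthase gene CHS2 (YBR038W) of the septum averaged 1.52 ± 0.12 and the cytokinesis gene HOF1 (YMR032W) 1.45 ± 0.14. CDC20 (YGL116W), which activates the anaphase-promoting complex, gave -0.01, 0.48, 2.82 and 2.73 in replicate 1 and -0.44, -0.42, 1.27 and 2.90 in replicate 2, so that it was above 0 in both replicates only at 60 and 75 min (mean 1.17 ± 0.20, late minus early 2.52 ± 0.25, adjusted p = 0.00028). Of 21 cluster genes 19 were higher and 0 lower, against 19.7% and 19.2% of all features. Over the 4 times their median was 0.01, 0.84, 1.36 and 1.64. In replicate 1 it reached 1.44 above the 0 min extract in CPT and 0.31 in MMS. Against untreated cells of the same time in replicate 2 the list median was -0.39 in CPT and -1.1 in MMS. The sign in both agents thus depends on the reference. CLB2 (1.60), SWI5 (1.67), CHS2 (1.46) and HOF1 (1.37) without replicate 2 missed the threshold. CDC20 (0.62) with 75 min left out missed the threshold. The 21 CLB2 cluster genes gave 3 higher and 0 lower without replicate 2.

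Genes that peak between mitosis and G1 were mostly called at 75 min. PIR1 (YKL164C), a cell wall protein gene, gave 0.02, 0.06, 0.35 and 4.05 in replicate 1 and -0.25, -0.36, -0.13 and 3.72 in replicate 2, near 0 up to 60 min and far above it at 75 min. EGT2 (YNL327W), needed for separation of daughter cells, had the same shape, with 3.41 ± 0.16 at 75 min (adjusted p = 1.2e-06). The septum glucanase gene DSE4 (YNR067C) averaged 0.85 ± 0.12 and the bud neck gene NIS1 (YNL078W) 1.13 ± 0.17. Of 22 M/G1 genes 13 were higher and 1, PIR3 (YKL163W) (-0.50 ± 0.13), lower in the mean of the 4 times (19.7% and 19.2% of all features). At 60 min 6 were higher and 1 lower (13.7% and 14.1% of all features). At 75 min 18 were higher (21.5%) and 0 lower, and 11 of the 22 were called at 75 min and at no other time (8.19%). The list median at 75 min was below both references in both agents. It was -1.79 in CPT and -2.58 in MMS against untreated cells of replicate 2. Against the 0 min extract of replicate 1 it was -0.28 and -1.94. In the mean of the 4 times PIR1 (1.12) and PIR3 (-0.29) without replicate 2 missed the threshold. With 75 min left out the means of PIR1 (-0.05), EGT2 (0.39) and DSE4 (0.40) missed the threshold. The 22 M/G1 genes gave 3 higher and 0 lower without replicate 2.

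**Figure D5:**
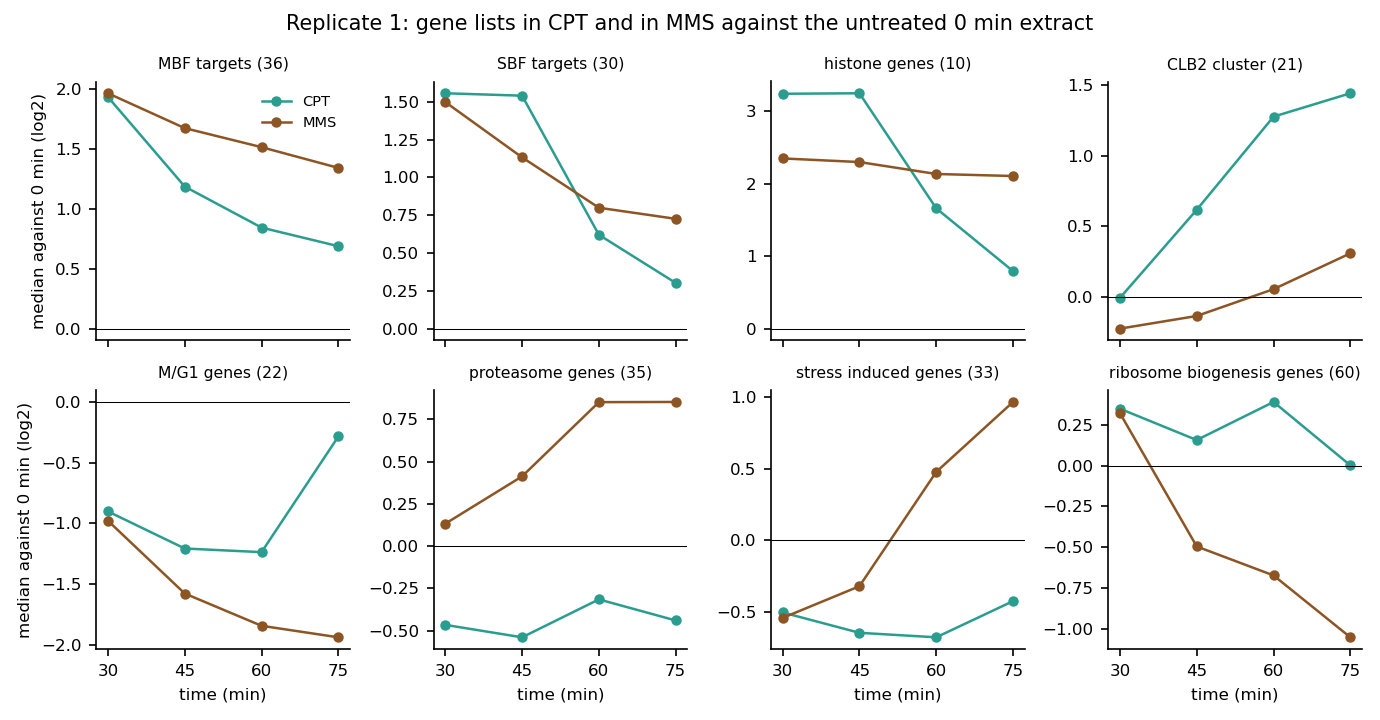
Median of 8 gene lists (y axis, log2 against the untreated 0 min extract, scale set for each list) in CPT and in MMS in replicate 1 at 30, 45, 60 and 75 min. Histone and MBF medians drop faster in CPT, the CLB2 cluster climbs to 1.44 in CPT and 0.31 in MMS, and the stress median ends at 0.96 in MMS and -0.42 in CPT.

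Stress-induced genes were lower in CPT, increasingly so with time. RTC3 (YHR087W), known to be induced by stress, gave -0.30, -0.71, -2.36 and -3.33 in replicate 1 and -0.11, -0.70, -2.11 and -3.39 in replicate 2. Both replicates moved steadily from near 0 to below -3 (mean -1.63 ± 0.10, late minus early -2.34 ± 0.12, adjusted p = 3.2e-05). The phosphoglucomutase gene PGM2 (YMR105C) (-1.35 ± 0.11), the glucokinase gene GLK1 (YCL040W) (-1.64 ± 0.13), the trehalose synthase subunit gene TSL1 (YML100W) (-1.61 ± 0.12), the mitochondrial chaperone gene HSP78 (YDR258C) (-1.55 ± 0.10) and TFS1 (YLR178C) (-1.50 ± 0.12), an inhibitor of carboxypeptidase Y, were lower. DDR2 (YOL052C-A) averaged -1.23 ± 0.13, with values above 0 at 30 min in both replicates. HSP12 (YFL014W), a membrane-stabilising stress protein gene, gave 0.36, 0.59, -0.25 and -1.70 in replicate 1 and 0.83, 0.89, -0.33 and -2.51 in replicate 2. It was higher in CPT at first and lower at the end, and its mean was not called (-0.27 ± 0.14, adjusted p = 0.15). Late minus early it was -1.87 ± 0.17 (adjusted p = 0.00018), and -1.45 without replicate 2, which missed the threshold. Of 33 stress-induced genes 28 were lower and 0 higher, against 19.2% and 19.7% of all features. Late minus early 25 were lower (7.44% of all features were), and the median was -0.05 at 30 min and -1.58 at 75 min. In replicate 1 this median rose from -0.54 to 0.96 against the 0 min extract in MMS and was -0.50 and -0.42 at these times in CPT. Against untreated cells of the same time in replicate 2 the list median was 0.35 in CPT and 1.21 in MMS, so here too the sign in CPT depends on the reference. Of 20 chaperone genes 12 were lower and 1 higher, against the same shares of all features. Among the lower were HSP31 (YDR533C) (-1.32 ± 0.11), the Hsp90 gene HSP82 (YPL240C) (-1.05 ± 0.10) and the endoplasmic reticulum chaperone gene KAR2 (YJL034W) (-1.06 ± 0.12). In size, RTC3 was -1.05, PGM2 was -0.87 and DDR2 was -0.65 with 75 min left out. The 33 stress induced genes gave 0 higher and 10 lower without replicate 2 and the 20 chaperone genes gave 0 higher and 5 lower without replicate 2.

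Ribosome biogenesis genes went the opposite way and were higher in CPT from 45 min on. The RNA helicase gene DBP2 (YNL112W) gave 0.55, 1.37, 2.40 and 2.13 in replicate 1 and 0.40, 1.54, 2.13 and 2.82 in replicate 2 (mean 1.67 ± 0.12, adjusted p = 1.5e-05). The nucleolin gene NSR1 (YGR159C) averaged 1.57 ± 0.12, the nucleolar GTPase gene NOG1 (YPL093W) 1.62 ± 0.12, the ribosome export gene RRP12 (YPL012W) 1.32 ± 0.14 and the helicase gene HAS1 (YMR290C) 1.17 ± 0.11. Of 60 genes on the list, which does not hold NOG1, 53 were higher and 0 lower, against 19.7% and 19.2% of all features. Late minus early 54 were higher (7.92% of all features were). The median was -0.01 at 30 min and 1.21 at 75 min. In replicate 1 it ended at 0.00 in CPT and -1.05 in MMS against the 0 min extract. Genes of the ribosomal proteins themselves showed little of this, since 13 of 135 were higher and 5 lower (13.3% called, median 0.03). Purine genes stood between them. The adenine deaminase gene AAH1 (YNL141W) gave 0.32, 1.65, 2.63 and 2.86 in replicate 1 and 0.45, 1.71, 2.41 and 3.29 in replicate 2 (mean 1.91 ± 0.11, adjusted p = 3.9e-06), and the salvage gene HPT1 (YDR399W) averaged 1.56 ± 0.11. The GMP synthase gene GUA1 (YMR217W) (1.12 ± 0.11) and the IMP dehydrogenase gene IMD4 (YML056C) (0.98 ± 0.15) were higher as well, 8 of 20 in all, and 2 were lower (50% called, against 38.8% of all features). IMD4 (0.78) without replicate 2 missed the threshold. The 60 ribosome biogenesis genes gave 22 higher and 0 lower without replicate 2, the 135 ribosomal protein genes gave 1 higher and 0 lower without replicate 2 and 27 higher and 3 lower without replicate 1 and the 20 purine genes gave 4 higher and 0 lower without replicate 2.

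Many nuclear respiratory genes and some sterol genes were higher in CPT, a few of them already at 30 min. CYT1 (YOR065W), the cytochrome c1 gene, gave 1.13, 1.76, 1.94 and 1.13 in replicate 1 and 0.89, 1.56, 1.34 and 0.95 in replicate 2, above 0 at each time and highest at 45 and 60 min (mean 1.34 ± 0.12, adjusted p = 4.4e-05). The cytochrome c gene CYC1 (YJR048W) instead climbed with time, from -0.01 at 30 min to 2.99 at 75 min, and the NADH dehydrogenase gene NDE1 (YMR145C) averaged 1.55 ± 0.11. Of 38 nuclear genes of the respiratory chain 4, 20, 18 and 13 were called higher at the 4 times. The shares of all features were 0.544%, 9.38%, 13.7% and 21.5%. The list median was 0.35, 0.64, 0.50 and 0.31, widest at 45 min. In the mean 22 were higher and 2 lower (19.7% and 19.2% of all features). The 2 lower ones, CYC7 (YEL039C) (-0.31 ± 0.11) and COX5B (YIL111W) (-0.32 ± 0.11), encode the isoforms of cytochrome c and of an oxidase subunit used when oxygen is short, while COX5A (YNL052W), the aerobic partner of COX5B, was higher (1.14 ± 0.11). Of 8 protein genes of the mitochondrial genome 4 were higher in the mean (50% called, against 38.8% of all features), led by COX1 (Q0045) (1.35 ± 0.18). At single times 1 of the 8 was higher and 1 lower at 45 min, 1 was higher at 60 min and 6 were at 75 min. Their replicate medians were opposite in sign at 45 min (-0.39 in replicate 1 and 0.64 in replicate 2) and at 60 min (0.71 and -0.10). The sterol desaturase gene ERG5 (YMR015C) averaged 1.58 ± 0.11, the lanosterol demethylase gene ERG11 (YHR007C) 1.24 ± 0.13 and CYB5 (YNL111C), the cytochrome b5 that serves these enzymes, 1.50 ± 0.14. Of 34 sterol and haem genes 14 were higher and 3 lower (50% called). The fatty acid desaturase gene OLE1 (YGL055W) (1.57 ± 0.14) and the membrane protein gene IZH1 (YDR492W) (1.56 ± 0.11) were among the 15 highest called genes with 1 sign in all 8 differences. Only 19 features (0.304%) were called higher in CPT at all 4 times, and CYT1, ERG5, ERG11 and HAP4 (YKL109W), the activator of respiratory genes, were among them (HAP4 was picked out after its values were seen, mean 1.22 ± 0.16). In replicate 2 the respiratory median stood at 0.13 in CPT and -0.54 in MMS against untreated cells. CYC7 (-0.40), COX5B (-0.42) and COX5A (1.01) without replicate 2 and CYC7 (-0.22) and COX5B (-0.21) without replicate 1 missed the threshold. CYC7 (-0.26) and COX5B (-0.21) with 60 min left out and CYC7 (-0.18) and COX5B (-0.16) with 75 min left out missed the threshold. In size, COX5B was -0.51 with 30 min left out. The 38 nuclear respiratory genes gave 7 higher and 0 lower without replicate 2 and 26 higher and 0 lower without replicate 1, the 8 mitochondrial genome genes gave 1 higher and 0 lower without replicate 2 and the 34 sterol and haem genes gave 5 higher and 0 lower without replicate 2 and 18 higher and 1 lower without replicate 1.

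Acid phosphatase genes were close between the agents at 30 min and far higher in CPT at 75 min. PHO3 (YBR092C) gave 0.06, 0.47, 3.54 and 4.25 in replicate 1 and 0.41, 0.75, 2.34 and 5.09 in replicate 2, which makes it 4.33-fold higher in the mean (2.11 ± 0.18, adjusted p = 3.1e-05) and the highest called gene. PHO12 (YHR215W) averaged 1.73 ± 0.18, PHO11 (YAR071W) 1.39 ± 0.14 and PHO5 (YBR093C), the main secreted enzyme, 1.30 ± 0.14. PHO11 and PHO12 are near-identical and PHO3 and PHO5 closely related, so their probes may share signal. Against untreated cells of the same time in replicate 2 PHO3 averaged -0.44 in CPT and -2.48 in MMS, and PHO12 -0.32 and -1.91. At 75 min PHO3 stood there at 0.67 in CPT and -4.37 in MMS. Against the 0 min extract of replicate 1 it stood at 2.72 and -1.53 at 75 min. Late minus early, PHO3 (3.38), PHO12 (2.78) and YNL058C (2.61) had the highest values among called features with a symbol, and PHO11 (2.28) and PHO5 (1.82) were higher too. Of 16 phosphate genes 9 were higher and 1 lower, against 19.7% and 19.2% of all features. The lower one was the vacuolar alkaline phosphatase gene PHO8 (YDR481C) (-0.52 ± 0.10). YNL058C, a gene of unknown function, shared this course with 0.01, 0.81, 2.75 and 3.25 in replicate 1 and -0.17, 0.74, 1.77 and 4.04 in replicate 2. PHO8 (-0.48) without replicate 2 missed the threshold. In size, PHO3 was 1.26, PHO12 was 0.99, PHO11 was 0.77, PHO5 was 0.80 and YNL058C was 0.99 with 75 min left out.

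Hexose and sulfur genes were found on both sides, as were features at large (19.2% lower and 19.7% higher). Of 27 glycolysis and hexose transport genes 12 were lower, among them TPI1 (YDR050C) (-0.81 ± 0.14) and ADH1 (YOL086C) (-0.76 ± 0.11), and 6 higher, among them the transporter gene HXT2 (YMR011W) (0.95 ± 0.11) and both phosphofructokinase genes, PFK1 (YGR240C) (0.70 ± 0.12) and PFK2 (YMR205C) (0.66 ± 0.11), so that 66.7% were called against 38.8% of all features. Of 31 sulfur and methionine genes 10 were lower, led by the cystathionine lyase gene STR3 (YGL184C) (-1.23 ± 0.11), and 5 higher (48.4% called). The higher ones included the methionine synthase gene MET6 (YER091C) (0.90 ± 0.10) and the S-adenosylmethionine synthetase genes SAM1 (YLR180W) (0.97 ± 0.11) and SAM2 (YDR502C) (0.97 ± 0.11), a closely related pair. PFK1 (0.70), PFK2 (0.60) and SAM1 (0.85) without replicate 2 missed the threshold. The 27 glycolysis and hexose genes gave 1 higher and 2 lower without replicate 2 and the 31 sulfur and methionine genes gave 2 higher and 4 lower without replicate 2.

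Pheromone response genes, whose level falls after release, were slightly higher in CPT. Of 29 such genes 14 were higher and 1 lower, against 19.7% and 19.2% of all features. The kinesin partner gene CIK1 (YMR198W) led the higher ones (0.81 ± 0.11). The fusion gene FUS1 (YCL027W) averaged 0.39 ± 0.14 (adjusted p = 0.047). At 75 min 18 of the 29 were higher, against 21.5% of all features, with a median of 0.50. Both agents stood far below the 0 min extract of replicate 1, with medians of -2.11 in CPT and -2.36 in MMS at 30 min. Ratios give no levels, so mating type itself could not be checked. Of 2 alpha-specific genes measured, STE3 (YKL178C) was lower in CPT (-0.54 ± 0.10). FUS1 (0.57) and STE3 (-0.54) without replicate 2 and FUS1 (0.21) without replicate 1 missed the threshold. FUS1 (0.39) with 30 min left out and FUS1 (0.36) with 75 min left out missed the threshold. The 29 pheromone response genes gave 1 higher and 0 lower without replicate 2 and 7 higher and 1 lower without replicate 1.

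The gene of the CPT target did not pass the test, and drug efflux genes went both ways. TOP1 (YOL006C), the topoisomerase I gene, gave 0.07, 0.14, 0.10 and 0.19 in replicate 1 and -0.09, -0.18, 0.22 and 0.39 in replicate 2, with values on both sides of 0 and a mean that was not called (0.10 ± 0.10, adjusted p = 0.46). The efflux pump gene PDR5 (YOR153W) was higher in CPT (0.53 ± 0.14, adjusted p = 0.017) and SNQ2 (YDR011W), another pump, lower (-0.43 ± 0.10, adjusted p = 0.0098). Of 15 topoisomerase and efflux genes 3 were higher and 4 lower, 46.7% against 38.8% of all features. PDR5 (0.51) and SNQ2 (-0.47) without replicate 2 and SNQ2 (-0.38) without replicate 1 missed the threshold. PDR5 (0.39) with 75 min left out missed the threshold. The 15 topoisomerase and efflux genes gave 0 higher and 0 lower without replicate 2.

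The remaining genes at either end were of other kinds. On the lower side, YNL134C, an aldehyde reductase gene, gave -2.35, -3.72, -4.54 and -4.29 in replicate 1 and -2.47, -3.79, -3.58 and -3.98 in replicate 2 (mean -3.59 ± 0.14, adjusted p = 3.3e-07). It was below -2 in all 8 differences. OSI1 (YKL071W), a gene named for its induction by oxidative stress, averaged -2.80 ± 0.12 and FMP23 (YBR047W), which encodes a mitochondrial protein, -2.47 ± 0.13. On the higher side, SFG1 (YOR315W), a transcription factor gene of superficial pseudohyphal growth, gave 0.54, 2.14, 2.65 and 2.30 in replicate 1 and 0.39, 1.92, 2.09 and 2.29 in replicate 2 (mean 1.79 ± 0.11, adjusted p = 6.6e-06). BSC1 (YDL037C) (1.73 ± 0.19) and the neighbouring open reading frame YDL038C (1.57 ± 0.20) moved together, and YLR363W-A averaged 1.67 ± 0.20. SFG1 (1.91) without replicate 2 missed the threshold.

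Sorted by course, 136 features (2.18%) were called lower in CPT at all 4 times and 19 (0.304%) higher. The 136 held 21 of the 34 oxidative stress genes, 17 of the 35 proteasome genes, 7 of the 18 arginine and lysine genes, 7 of the 23 iron genes and 1 of the 36 MBF targets, POL30. A further 512 features (8.19%) were called higher and 485 (7.76%) lower at 75 min and at no other time, among the former 13 of the 29 pheromone genes, 11 of the 22 M/G1 genes and 5 of the 8 mitochondrial genome genes. Late minus early, 960 features (15.4%) were called, 495 (7.92%) higher and 465 (7.44%) lower in CPT. Without replicate 1 the split was 158 higher and 70 lower, and without replicate 2 it was 36 and 37. Outside the 15 features that turned from higher to lower, 5 (0.08%) turned from lower at 45 min to higher at 75 min, and these were HMX1, MCM4, MCM5, PRY1 and YRO2, named here after their values were seen. MCM4 and MCM5 encode subunits of the replicative helicase and HMX1 a haem oxygenase.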

How the data were processed

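Wild-type yeast RNA was hybridised to two-colour arrays, and the deposited values were taken as log2 ratios of Cy5 over Cy3, the sample named first in each label over the second. The values are signed and centred near 0, and the table holds 6266 probes with 0 missing values on 61 arrays. Limma is named per the submitters' processing notes, without a version, and how background was corrected and arrays were normalized is not given in the sources used here. Per the labels' protocols the scanner files were averaged images. Of the probes 5609 carry 1 symbol and 657 none, and 16 genes have several probes, which were averaged into 6249 features. Gene names came from the platform table, of which 5608 matched RefSeq genes of assembly R64.

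For each feature the 14 arrays were solved by least squares with a dye term, giving 8 differences of CPT minus MMS (4 times in 2 replicates). Those of replicate 1 come from 2 chains of 5 arrays and those of replicate 2 from direct arrays. Each difference is within a replicate, so replicates are paired by construction. The 8 values were fitted with limma 3.58.1 in R 4.3.3 (1 mean per time, eBayes without trend, Benjamini-Hochberg over all features, threshold 0.05). Standard errors and degrees of freedom (2.78 residual, 7.04 prior, prior SD 0.181) carry the covariance of differences that share arrays, a step added after tests on simulated data. Late minus early is the mean of 60 and 75 min minus that of 30 and 45 min. Ratios against untreated cells are those of replicate 2 only, solved from all 36 wild-type arrays, hydroxyurea extracts included. Those against 0 min are from the 10 arrays of replicate 1. The precision is limited by the number of arrays.

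The lists and members were chosen with earlier results of these data known. Named are genes with a symbol among the 15 highest and 15 lowest called means with 1 sign in all 8 differences, the 6 highest and 6 lowest late minus early, up to 4 called members of each of 29 lists of largest difference, members against their list's main direction, and a fixed set of G1/S, checkpoint and drug genes. The oxidative stress, proteasome and other lists are described by counts and medians, with no test of a list. Fewer features in total passed in the mean with either replicate left out. The ribosomal protein, nuclear respiratory and sterol and haem lists instead gave more calls without replicate 1. List counts given for those fits stand without the share of all features, so they do not tell 1 list from another. Alternatives changed the dye term, the arrays, weights, scaling, the replicate term, the spread and the replicates and times used. Figures were drawn with matplotlib 3.10.9. No genome or sequence was used.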

Additional observations from a re-analysis of the deposited data

Results flagged for a closer look

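The difference between CPT and MMS itself changed between the early times (30 and 45 min) and the late times (60 and 75 min) in the genes below, by the limma contrast late minus early with Benjamini-Hochberg adjustment over 6249 features (2 replicates at each time). It passed the threshold in 83 of the 138 named genes whose mean is reported, and the 17 whose late minus early value is given in the text are listed.

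Downward with time in CPT against MMS were the stress genes RTC3 (-2.34), DDR2 (-2.2), PGM2 (-1.89) and HSP12 (-1.87), the histone genes HHF1 (-1.9), HHF2 (-1.77), HHT2 (-1.74) and HTB1 (-1.36), and the G1/S genes CLN1 (-1.18) and NRM1 (-0.806). Upward were the phosphatase genes PHO3 (3.38), PHO12 (2.78), PHO11 (2.28) and PHO5 (1.82), the mitotic genes CDC20 (2.52) and HOF1 (2.43), and YNL058C (2.61). Each kept its direction without replicate 1 and without replicate 2. Without replicate 2 HOF1 (2.30), HSP12 (-1.45), CLN1 (-1.40) and NRM1 (-1.21) missed the threshold, and without replicate 1 CLN1 (-0.97) and NRM1 (-0.40) did. With 2 values at a time, no sample could be tested against the others of its group.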

How the results depend on the processing

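Of 126 named genes past the threshold in the mean of the 4 times, 124 kept their direction under each of the 17 alternatives that give a value for every one of them and 65 also stayed past the threshold, and the exceptions in direction were HHT2 and PIR1. The 2427 features called in the mean all kept their direction under most of these 17. With replicate 2 through the other 3 arrays of each loop 2400 did. Without the closing arrays of replicate 1 it was 2398, and without 75 min 2423. Those of the 17 that change only the spread or the replicate term leave each estimate as it is, so no sign could turn there. Genes named for 1 sign in all differences could not turn with a replicate or a time left out. The direction counts were thus partly fixed in advance. The replicate block gave 2971 features in the mean, the differences taken as independent of one another, an alternative added after seeing the data, 3618, and 1 mean per replicate 1782. With single replicates the spread was shared with hydroxyurea minus untreated differences, so the lone sample is assumed to vary like those. The counts then were 510 to 2007 for the mean, 24 to 49 at 30 min, 57 to 604 at 45 min, 390 to 714 at 60 min, 1147 to 1439 at 75 min and 73 to 228 late minus early. Through the other 3 arrays of each loop in replicate 2 they were 563 in the mean (42.6% higher, against 50.7%), 12 at 30 min, 29 at 45 min, 222 at 60 min, 801 at 75 min and 88 late minus early. At 30 min the count was 111 with no dye term, 797 without the closing arrays, 455 with arrays scaled to equal spread and 304 with the replicate block, and at 45 min it was 723 with all 36 wild-type arrays. The cause of these changes was not tested.

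Signs turned for CLB5 with no dye term (0.0028), through the other loop arrays (0.24), without the closing arrays (0.11) and without replicate 1 (0.0020, against -0.24 without replicate 2). They turned for NRM1 through the other loop arrays (0.14), without the closing arrays (0.12), without replicate 1 (0.030, against -0.27 without replicate 2) and without 75 min (0.22). Through the other loop arrays SWI6 (-0.034) turned, without the closing arrays CLN1 (0.093) and TOP1 (-0.093), with scaled arrays HHF2 (0.0063) and HSP12 (0.20), and CLN2 without replicate 1 (-0.19, against 0.40 without replicate 2) and without 45 min (-0.056). SML1 turned without 45 min (-0.013). The mean without 75 min turned CLN1 (0.0042), HHF1 (0.34), HHF2 (0.36), HHT2 (0.12), HSP12 (0.35) and PIR1 (-0.051), whose values at 75 min lie far from the others.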
